A study of Mus musculus with 12 samples.

Results

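The genes described here encode 47 proteins of the lysosome and its control. Among them are 10 proteases and their partners, 9 glycosidases, 7 proteins of a lipid group and 5 membrane proteins. The rest are 3 mucolipin channels, 2 transcription factors and 11 subunits of the vacuolar proton pump. The lipid group breaks down or carries lipids, and progranulin was placed with it. The genes were chosen by symbol. All 47 were found among the 15555 genes of the count table and passed the filter on low counts. The counts came from 12 RNA libraries of macrophages grown from mouse bone marrow, with 3 libraries per genotype. The 4 genotypes were Cbl-/-, Cbl-b-/-, the double knockout of both genes (DKO) and wild type (WT). Marrow cells were grown to day 9 in medium with 10% serum and L-cell supernatant as the source of CSF-1, the growth factor of macrophages, and RNA came from the cells that adhered. The sources used here do not give strain, sex or animal age, nor how the alleles were made.

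Lysosomes are acidic organelles in which macrophages digest what they have engulfed. The vacuolar proton pump (V-ATPase) acidifies them with a V1 part that splits ATP and a V0 part that carries protons through the membrane, and the hydrolases inside work at that acid pH. The transcription factors TFEB and TFE3 bind an extended E-box, known as the CLEAR element, in the promoters of many lysosomal genes. The ubiquitin ligases Cbl and Cbl-b tag active receptors such as that for CSF-1, which are then sent to the lysosome.

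Total counts per library ranged from 21048103 to 43946503. Cbl averaged 51.5 CPM (counts scaled to library size) in Cbl-/-, 139 CPM in Cbl-b-/-, 37.6 CPM in DKO and 140.2 CPM in WT. Cblb averaged 68.5, 52.8, 71.7 and 59.4 CPM in the same order, so its transcript was still present in both genotypes that should lack it. With edgeR's quasi-likelihood test, Cblb had a log2 fold change against WT of -0.17 in the libraries labelled Cbl-b-/- (adjusted p = 0.46). All of them lay below WT. In those labelled DKO it was higher than in WT, at 0.27 (adjusted p = 0.0027). A lesion that spares the transcript would not show in such counts. Both groups are therefore named by label, and every direction given for them rests on the labels. The macrophage genes Csf1r, Adgre1, Cd68 and Lyz2 were high in every group, at 1709, 696, 1148 and 14080 CPM in the libraries labelled DKO and 2207, 900.3, 1268 and 15670 CPM in WT. The library DKO 3 stood apart from its partners: its chi-square per degree of freedom was 44.7 against DKO 1 and 55.3 against DKO 2, while the other 10 pairs of libraries of 1 genotype had 3.93 to 12.3. Nothing in the labels says that replicates came from separate animals, so the p-values measure only the spread between these libraries.

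Together the 47 genes summed to 41893 ± 373 CPM in Cbl-/- and 45540 ± 2327 CPM in the libraries labelled Cbl-b-/-. The sum was 50756 ± 1899 CPM in those labelled DKO and 48307 ± 1161 CPM in WT (SD, n = 3 each). Library sizes were scaled by TMM, so such sums are not shares of the counts. The TMM factors were 0.9386 to 0.9774 in the libraries labelled DKO, which raises their CPM, and 1.001 to 1.009 in WT. Of the sum over the 47 genes, Ctsb and Ctsd, the genes of cathepsins B and D, made up 38.0% in Cbl-/-. They made up 42.1% in the libraries labelled Cbl-b-/-, 40.7% in those labelled DKO and 44.3% in WT. Without both, the remaining 45 genes summed to 25961 CPM in Cbl-/-, 26388 CPM in the libraries labelled Cbl-b-/-, 30072 CPM in those labelled DKO and 26885 CPM in WT. Per kilobase of exon, the WT level was highest for Ctsd, at 4642 CPM per kilobase. It was followed by the saposin precursor Psap (1869), Ctsb (1737), Ctss (1685) and the progranulin gene Grn (701). The channel genes Mcoln1 and Mcoln3 were lowest, at 6.83 and 2.29 CPM per kilobase.

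The letters of the CLEAR element were searched for in the promoters, because its binding factors act on this group of genes. RefSeq promoter windows of GRCm38.p6, which run from 250 bases before to 50 bases after a start site, were held for 40 of the 47 genes. The 6-base E-box CACGTG, which reads the same on both strands, occurred in a window of 15 of the 40 genes (37.5%), against 11.4% of 11460 genes of the count table with a window and 8.09% of 27025 genes in RefSeq. The 8-base core TCACGTGA, which contains the E-box and also reads the same on both strands, occurred in 7 of the 40 (17.5%), against 2.03% and 1.12%. The 7 holders encode cathepsins A and D (Ctsa, Ctsd), alpha-galactosidase A (Gla), the membrane protein CLN3 (Cln3), the channel TRPML1 (Mcoln1) and the pump subunits A and d1 (Atp6v1a, Atp6v0d1). A match of letters is not a bound site. The stretches that hold the core are printed below on the strand of the gene, 5′ to 3′, with the core in capitals. Ctsa and Gla hold it at a pair of places.
Ctsd, chr7:142387911-142387934, minus strand: cccgcgtcTCACGTGAcccgttga
Ctsa, chr2:164833752-164833775, plus strand: gcaaactgTCACGTGAtgcagatg
Ctsa, chr2:164833769-164833792, plus strand: gcagatgcTCACGTGAccagagct
Atp6v1a, chr16:44139376-44139399, minus strand: tttttaaaTCACGTGAtaggctta
Gla, chrX:134601218-134601241, minus strand: gcgattgaTCACGTGAgcatctac
Gla, chrX:134601185-134601208, minus strand: gatctcggTCACGTGAgcaactct
Mcoln1, chr8:3500465-3500488, plus strand: cgccccgcTCACGTGAccgcggcg
Cln3, chr7:126583343-126583366, minus strand: gggtactgTCACGTGAcccccaac
Atp6v0d1, chr8:105566053-105566076, minus strand: tactgcggTCACGTGAgacgcggt

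In Cbl-/- macrophages the genes of 3 digestive enzymes of the cathepsin group were lower than in WT, that of another, Ctsh, was higher by more than any other hydrolase gene, and all 3 mucolipin channel genes were higher. Each comparison used edgeR's quasi-likelihood test on all 12671 genes that passed the filter, with Benjamini-Hochberg adjustment and a threshold of 0.05. Of the 47 genes, 8 rose, 5 fell and 34 did not pass, where 5.68% of all genes tested rose and 4.19% fell. The median log2 fold change was -0.08 over the 47 genes and -0.01 over all genes tested. How many genes passed changed with DKO 3, a library outside this comparison that shares the fit: without it, 9 rose and 16 fell, and with only Cbl-/- and WT fitted, 18 fell. Without WT 1, 5 rose and 3 fell, and the number that fell was 3 without Cbl-/- 1 and 8 without DKO 2. Of the 34 genes that did not pass, 14 passed under at least 1 alternative. Markers of other cells differed here too: 7 monocyte genes summed to 82.8 to 93.2 CPM in Cbl-/- and 56.5 to 61.9 CPM in WT, and 8 neutrophil and granulocyte precursor genes to 48.6 to 50.3 CPM in Cbl-/- and 31.7 to 38.7 CPM in WT. Of the 7 monocyte genes 2 rose and none fell, and without Ccr2 they summed to 26.15 to 31.7 CPM in Cbl-/- and 13.6 to 16.4 CPM in WT. Of the 8 granulocyte genes 3 rose and none fell. Most of the granulocyte sum was Mmp8, and the other 7 genes summed to 4.88 to 5.98 CPM in Cbl-/- and 3.05 to 4.26 CPM in WT. The 14 macrophage genes summed to 19330 to 20290 CPM in Cbl-/- and 22090 to 24480 CPM in WT, but without Lyz2 the ranges overlapped, at 7186 to 7532 CPM in Cbl-/- and 7262 to 8026 CPM in WT. Of these 14 genes 5 fell and 2 rose in Cbl-/-, with a median log2 fold change of -0.12, so the sums mix changes in both directions. The part of these markers in the result was not tested.

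**Figure D1:**
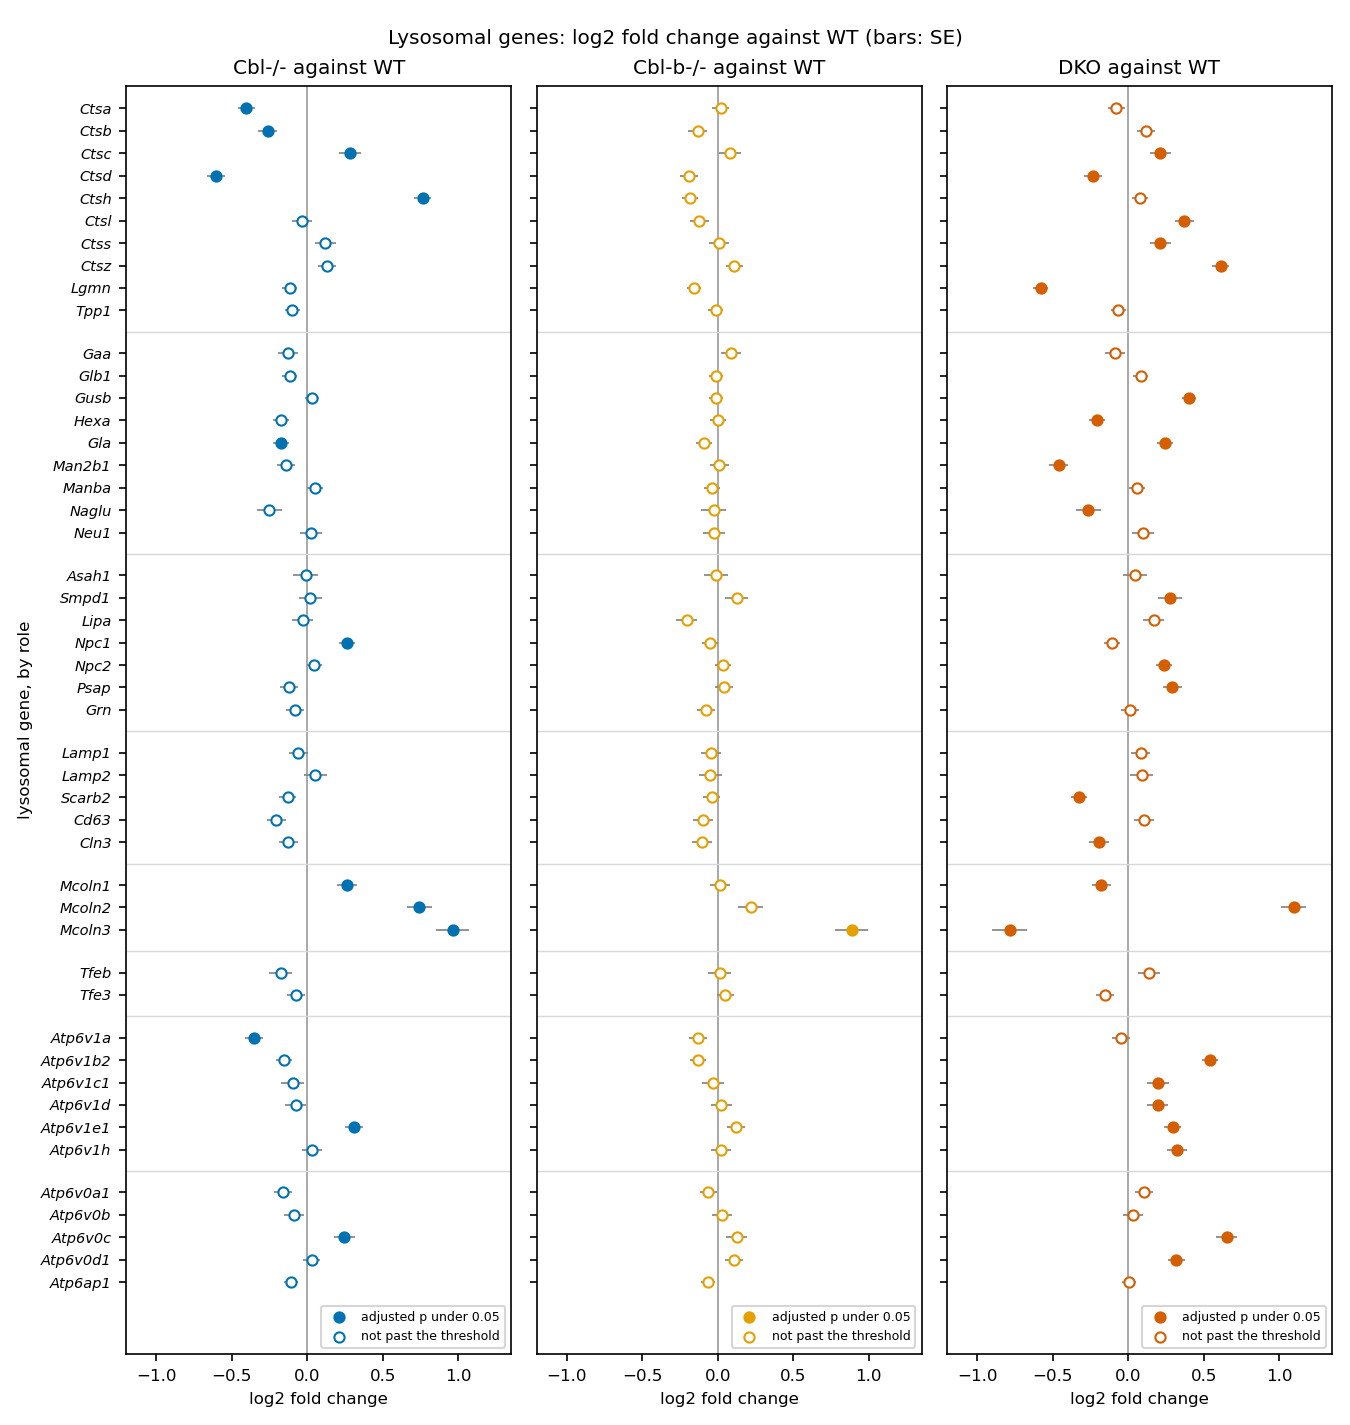
Log2 fold change (horizontal axis) of each of the 47 lysosomal genes (vertical axis, grouped by role) in Cbl-/- libraries and in the libraries labelled Cbl-b-/- and DKO, each against WT; points are fitted values, bars are SE, and filled points passed an adjusted p of 0.05. The 5 genes that fell in Cbl-/- included Ctsd, Ctsa and Ctsb, Mcoln3 alone passed in the libraries labelled Cbl-b-/-, and 17 genes rose and 9 fell in the libraries labelled DKO.

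The proteases moved in both directions. Ctsd (ENSMUSG00000007891, chromosome 7, 142375911 to 142388038), the gene of the main aspartic protease of lysosomes, had 7206, 7341 and 6967 CPM in Cbl-/- libraries. It had 10220, 9419 and 9092 CPM in the libraries labelled Cbl-b-/-, 8994, 9899 and 8925 CPM in those labelled DKO, and 11360, 10850 and 10530 CPM in WT. Every library of the other 3 genotypes lay below the lowest WT library, and the Cbl-/- libraries were the lowest of all. Against WT, Ctsd had a log2 fold change of -0.61 in Cbl-/- (SE 0.06, adjusted p = 2.5e-06) and -0.24 in the libraries labelled DKO (SE 0.06, adjusted p = 0.0053), while in those labelled Cbl-b-/- it was -0.19 and did not pass.

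Ctsa, whose product is a carboxypeptidase that also stabilises the enzymes encoded by Glb1 and Neu1, had 707, 725 and 702 CPM in Cbl-/- libraries, 909, 959.5 and 809 CPM in those labelled DKO and 958, 929 and 938 CPM in WT. The Cbl-/- libraries lay below all the others, and those labelled DKO overlapped WT. Ctsa was at -0.40 on the log2 scale in Cbl-/- (SE 0.06, adjusted p = 0.00015) and -0.08 in the libraries labelled DKO. Ctsb, a cysteine protease gene, had 8619, 8753 and 8911 CPM in Cbl-/- libraries, 10620, 11670 and 11940 CPM in those labelled DKO and 10810, 10280 and 10440 CPM in WT. It fell in Cbl-/- by 0.26 on the log2 scale (SE 0.06, adjusted p = 0.010), a call that was lost without WT 1 (adjusted p = 0.063) or without Cbl-/- 1 (adjusted p = 0.059).

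Ctsh, which encodes an aminopeptidase, went the other way. It had 126.5, 116 and 116 CPM in Cbl-/- libraries and 73.2, 69.2 and 69.4 CPM in WT, so that every Cbl-/- library was well above every WT library. The libraries labelled Cbl-b-/- held 63.4, 60.9 and 62.1 CPM and those labelled DKO 76.2, 75.9 and 71.65 CPM. Ctsh was at 0.76 on the log2 scale in Cbl-/- (SE 0.06, adjusted p = 6.7e-08), -0.18 in the libraries labelled Cbl-b-/- and 0.08 in those labelled DKO, and the last pair did not pass. Ctsc, the gene of a dipeptidyl peptidase that activates granule proteases, rose in Cbl-/- by 0.28 (SE 0.07, adjusted p = 0.017) and in the libraries labelled DKO by 0.21 (SE 0.07, adjusted p = 0.028). Its call was lost without WT 1, WT 3 or Cbl-/- 2 in Cbl-/-, with log2 fold changes of 0.26, 0.24 and 0.25, and without WT 1, WT 3 or DKO 2 in the libraries labelled DKO, with 0.19, 0.17 and 0.14. The call in those labelled DKO was also lost with libraries scaled by total counts alone (0.14, adjusted p = 0.13) or with only DKO and WT fitted (0.22, adjusted p = 0.095).

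Other proteases differed from WT in the libraries labelled DKO. Ctsz, the gene of a carboxypeptidase, had 965, 1029 and 879 CPM in the libraries labelled DKO, 689, 694 and 671 CPM in Cbl-/-, 677, 694 and 656 CPM in those labelled Cbl-b-/- and 648, 617 and 613 CPM in WT. All 3 libraries labelled DKO were above all the others. Ctsz rose by 0.61 on the log2 scale (SE 0.06, adjusted p = 4.9e-07), and 0.67 without DKO 3. Lgmn, which encodes the asparaginyl endopeptidase that cuts cathepsins into their mature chains, was low in the same libraries, with 377, 399 and 393.5 CPM in those labelled DKO and 601, 583 and 564 CPM in WT. In Cbl-/- it had 530.2, 523.5 and 556 CPM and in the libraries labelled Cbl-b-/- 533.5, 515 and 519 CPM. Its log2 fold change in the libraries labelled DKO was -0.58 (SE 0.05, adjusted p = 1.7e-07).

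Ctsl had 1760, 1837 and 1921 CPM in the libraries labelled DKO and 1402, 1340 and 1523 CPM in WT, without overlap. It rose by 0.37 on the log2 scale (SE 0.06, adjusted p = 0.00025). Ctss, the cathepsin that trims the invariant chain of MHC class II, rose by 0.21 in the libraries labelled DKO (SE 0.07, adjusted p = 0.024), but by 0.14 without DKO 3 (adjusted p = 0.061), and its call was also lost without WT 2 (0.18) or WT 3 (0.21). It was lost as well with libraries scaled by total counts alone (0.14, adjusted p = 0.082) or with only DKO and WT fitted (0.22, adjusted p = 0.078). In all, 4 of 10 proteases rose and 2 fell in the libraries labelled DKO, where 19.1% of all genes tested rose and 16.3% fell. In Cbl-/-, 2 rose and 3 fell, where 5.68% of all genes tested rose and 4.19% fell. Tpp1, a tripeptidyl peptidase gene, passed in neither comparison.

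**Figure D2:**
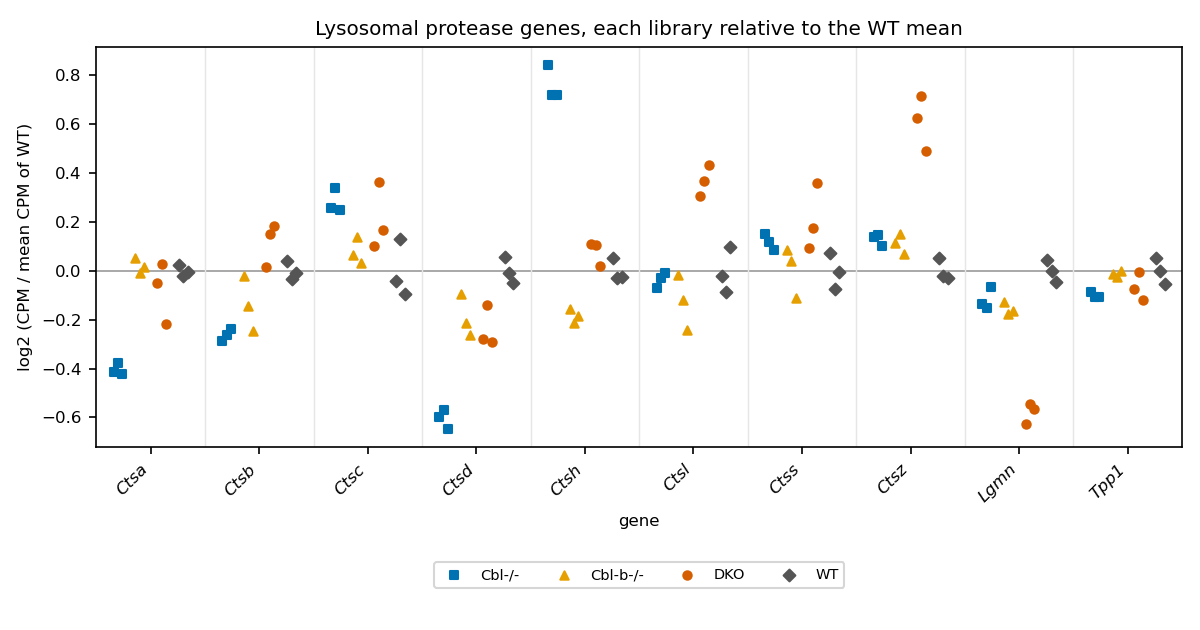
Log2 ratio of CPM to the WT mean (vertical axis) for the 10 protease genes (horizontal axis); each point is 1 library, with Cbl-/- and the libraries labelled Cbl-b-/- and DKO left of WT within each gene. The Cbl-/- libraries sit lowest for Ctsd and Ctsa and highest for Ctsh, and the libraries labelled DKO sit highest for Ctsz and lowest for Lgmn.

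In the libraries labelled DKO, 17 of the 47 genes rose against WT, 9 fell and 21 did not pass, where 19.1% of all genes tested rose and 16.3% fell. The median was 0.09 over the 47 genes and -0.003 over all genes tested. Without DKO 3 there were 17 rises and 8 falls. With libraries scaled by total counts alone, 12 rose and 11 fell, and of all genes 1773 rose and 2873 fell, against 2423 and 2062 with the main scaling. DKO 3 also differed from its partners within the group: it was over 0.2 on the log2 scale above the mean of DKO 1 and DKO 2 for 10 of the 47 genes and as far below it for another 10, where DKO 1 and DKO 2 were that far apart for 3.

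Markers of other cells differed in the same libraries. The summed level of 7 monocyte genes was 158 to 213 CPM in the libraries labelled DKO and 56.5 to 61.9 CPM in WT. Without Ccr2, its largest part in WT, it was 92.6 to 121.5 CPM and 13.6 to 16.4 CPM. Of the 7 genes, 6 rose and none fell, with a median log2 fold change of 5.44. Of 13 neutrophil and granulocyte precursor genes listed, 8 were in the table, which holds only genes with at least 1 count in WT 1. The sum of these 8 genes was 93.7 to 122 CPM in the libraries labelled DKO and 31.7 to 38.7 CPM in WT. Of these, 7 rose and Mmp8 fell, with a median of 4.63. Without Mmp8 the sums were 74.5 to 98.2 CPM and 3.05 to 4.26 CPM. Of 14 macrophage genes, 10 fell and 1 rose in the libraries labelled DKO, with a median log2 fold change of -0.74. Their sum was 17970 to 21160 CPM in the libraries labelled DKO and 22090 to 24480 CPM in WT, and without Lyz2, its largest part, 5391 to 5750 CPM and 7262 to 8026 CPM. Of 8 osteoclast genes, 5 rose and 2 fell, with a median of 0.87. Their sum was 137.5 to 154 CPM in the libraries labelled DKO and 129 to 150.2 CPM in WT, and without Nfatc1, its largest part, 62.6 to 63.4 CPM and 35.5 to 53.1 CPM. Sums of 6 dendritic cell genes were 30.6 to 32.9 CPM in the libraries labelled DKO and 16.4 to 19.7 CPM in WT. Without Itgax, their largest part, they were 2.91 to 3.18 CPM and 1.04 to 1.18 CPM. Sums of 5 stromal genes were 12.2 to 15.5 CPM and 2.21 to 4.93 CPM. The stromal gene Dcn was at 0 in every Cbl-/- library and every library labelled Cbl-b-/- and at most 0.307 CPM elsewhere. The 2 erythroid and megakaryocyte genes summed to 28.9 to 33.3 CPM in the libraries labelled DKO and 62.2 to 74.3 CPM in WT. Nearly all of that sum was Pf4. The other gene, Itga2b, was not tested and had 0.121 to 0.573 CPM in the libraries labelled DKO and at most 0.119 CPM in WT. The 1 lymphocyte gene in the table stayed under 0.21 CPM in all libraries. The part of these differences in the lysosomal results was not tested. In whole cultures, fewer cells of a type and less RNA per cell cannot be told apart.

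Glycosidases take sugars off proteins, lipids and matrix chains. Of their 9 genes, 2 rose and 3 fell in the libraries labelled DKO, where 19.1% of all genes tested rose and 16.3% fell. Gusb, the beta-glucuronidase gene, had 756, 773 and 734 CPM in the libraries labelled DKO, 581, 593 and 572.5 CPM in Cbl-/-, 577.5, 557 and 565 CPM in those labelled Cbl-b-/- and 574, 564.5 and 574 CPM in WT. The libraries labelled DKO lay above all the others and the rest overlapped. Gusb rose by 0.40 on the log2 scale (SE 0.05, adjusted p = 4.0e-06). Man2b1, the alpha-mannosidase gene, was lower, with 470.3, 506 and 414 CPM in the libraries labelled DKO and 639, 659 and 616 CPM in WT, and fell by 0.46 on the log2 scale (SE 0.06, adjusted p = 2.4e-05), or 0.38 without DKO 3. Hexa, the alpha subunit of beta-hexosaminidase, and Naglu, an enzyme of heparan sulfate breakdown, fell by 0.21 and 0.26 (adjusted p = 0.0068 and 0.021). Naglu without DKO 3 fell by 0.16 (adjusted p = 0.042), and its call was lost without WT 2 (-0.23) or DKO 1 (-0.25). With only DKO and WT fitted it was lost too (-0.26, adjusted p = 0.089).

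Gla, which encodes the enzyme that is missing in Fabry disease in humans, moved in opposite directions. It had 118, 115 and 112 CPM in Cbl-/- libraries, 153, 152 and 157 CPM in those labelled DKO, 128, 118 and 118 CPM in those labelled Cbl-b-/- and 129.9, 125 and 134 CPM in WT. The Cbl-/- libraries lay below WT and those labelled DKO above it. Gla was at -0.17 on the log2 scale in Cbl-/- (SE 0.05, adjusted p = 0.05, just under the threshold) and 0.24 in the libraries labelled DKO (SE 0.05, adjusted p = 0.0018). The fall in Cbl-/- was lost under 14 of 20 alternatives, among them DESeq2 size factors (adjusted p = 0.055). Gaa, Glb1, Manba and Neu1 are the genes of acid alpha-glucosidase, beta-galactosidase, beta-mannosidase and a sialidase. In the fit of all libraries they did not pass against WT in any genotype. Gaa passed as lower in Cbl-/- without DKO 3, and both Gaa and Glb1 did so with only Cbl-/- and WT fitted. Neu1 passed as higher in the libraries labelled DKO without DKO 3.

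Of the 7 genes of the lipid group, which also holds the progranulin gene Grn, 3 rose and none fell in the libraries labelled DKO. Of all genes tested, 19.1% rose and 16.3% fell there. Psap encodes the precursor of the saposins, which present sphingolipids to their hydrolases. It had 6209, 6735 and 5906 CPM in the libraries labelled DKO, 4644, 4867 and 4634 CPM in Cbl-/-, 5573, 5236 and 5005 CPM in those labelled Cbl-b-/- and 5344, 5195 and 4845 CPM in WT. The libraries labelled DKO were the highest. Psap rose by 0.29 on the log2 scale (SE 0.06, adjusted p = 0.0013). Npc2, the soluble carrier of cholesterol, rose by 0.24 (SE 0.05, adjusted p = 0.0017), and the acid sphingomyelinase gene Smpd1 by 0.28 (SE 0.08, adjusted p = 0.011), which was lost without DKO 2 (0.20, adjusted p = 0.056). The call of Smpd1 was also lost with total counts as the scaling (0.21, adjusted p = 0.053).

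Npc1 encodes the membrane protein that takes cholesterol from NPC2 and passes it out of the lysosome. It had 421, 418 and 399 CPM in Cbl-/- libraries, 332, 326 and 300.4 CPM in those labelled DKO, 336, 323 and 337.5 CPM in those labelled Cbl-b-/- and 352, 349 and 331 CPM in WT. Only the Cbl-/- libraries stood above WT. Npc1 rose in Cbl-/- by 0.26 (SE 0.05, adjusted p = 0.0037). In the libraries labelled DKO it was at -0.11 and did not pass, except with total counts as the scaling. Asah1, Lipa and Grn, the genes of acid ceramidase, acid lipase and progranulin, did not pass against WT in any genotype in the fit of all libraries. Lipa passed as higher in the libraries labelled DKO without WT 3 or without DKO 1. Asah1 had its highest level in DKO 3 (480.2 CPM, where DKO 1 and DKO 2 had 364 and 365 CPM).

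Of the 5 membrane protein genes, 2 fell and none rose in the libraries labelled DKO, where 16.3% of all genes tested fell and 19.1% rose. None passed in Cbl-/- in the fit of all libraries, where 5.68% of all genes tested rose and 4.19% fell. Lamp1 and Lamp2, which form most of the inner coat of the lysosomal membrane, had log2 fold changes of 0.08 and 0.09 in the libraries labelled DKO and did not pass. Without DKO 3 they were 0.01 and -0.03. Scarb2, which encodes LIMP-2, the receptor that carries beta-glucocerebrosidase to lysosomes, had 193.5, 183 and 195 CPM in the libraries labelled DKO and 245.5, 245 and 226 CPM in WT. It fell by 0.33 (SE 0.05, adjusted p = 0.00017) with no overlap. Cln3, whose loss causes a Batten disease in humans, fell by 0.19 (SE 0.06, adjusted p = 0.027), and by 0.11 without DKO 3 (adjusted p = 0.057). That call was also lost without WT 1 (-0.17) or WT 2 (-0.20), or with only DKO and WT fitted (-0.19, adjusted p = 0.1). The tetraspanin gene Cd63 was at -0.20 in Cbl-/- and 0.11 in the libraries labelled DKO and did not pass. In Cbl-/- it passed under 6 of 20 alternatives, among them DESeq2 and the fit without DKO 3.

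The mucolipins are cation channels that let calcium and other ions out of lysosomes and endosomes, and among the 47 genes Mcoln3 had the largest log2 fold change in Cbl-/- and in the libraries labelled Cbl-b-/-, and Mcoln2 in those labelled DKO. Mcoln3 (ENSMUSG00000036853, chromosome 3, 146117450 to 146141806) had 17.7, 14.8 and 13.8 CPM in Cbl-/- libraries, 15.2, 14.5 and 14.2 CPM in those labelled Cbl-b-/-, 5.02, 4.01 and 4.73 CPM in those labelled DKO and 8.02, 7.65 and 8.11 CPM in WT. Every library of both single genotypes was above every WT library, and every library labelled DKO was below. Mcoln3 was at 0.96 on the log2 scale in Cbl-/- (SE 0.11, adjusted p = 1.4e-05), 0.89 in the libraries labelled Cbl-b-/- (SE 0.11, adjusted p = 0.00055) and -0.78 in those labelled DKO (SE 0.12, adjusted p = 6.5e-05). Without DKO 3 the last was -0.80.

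Mcoln2 (ENSMUSG00000011008, chromosome 3, 146149833 to 146195513) starts 8026 bases after the end of Mcoln3, on the same strand. It had 38.2, 42.0 and 39.4 CPM in Cbl-/- libraries, 27, 30.8 and 25.1 CPM in those labelled Cbl-b-/-, 49.6, 46.95 and 56.1 CPM in those labelled DKO and 23.7, 24.4 and 23.3 CPM in WT. The libraries labelled DKO were the highest and those of Cbl-/- lay between them and WT. Mcoln2 was at 0.74 on the log2 scale in Cbl-/- (SE 0.08, adjusted p = 1.3e-05) and 1.10 in the libraries labelled DKO (SE 0.08, adjusted p = 4.1e-08), with 0.22 in those labelled Cbl-b-/-, which did not pass. The neighbours thus both rose in Cbl-/- but went in opposite directions in the libraries labelled DKO.

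Mcoln1, the channel gene with the most counts of the 3 in Cbl-/-, in the libraries labelled Cbl-b-/- and in WT, differed least. It had 61.9, 59.95 and 63.6 CPM in Cbl-/- libraries, 53.7, 51.5 and 51.1 CPM in those labelled Cbl-b-/-, 46, 49.0 and 42.0 CPM in those labelled DKO and 51.3, 49.2 and 54.4 CPM in WT. The Cbl-/- libraries lay above WT, and the libraries labelled DKO ended just under the lowest WT library. It rose by 0.26 in Cbl-/- (SE 0.06, adjusted p = 0.015) and fell by 0.18 in the libraries labelled DKO (SE 0.06, adjusted p = 0.044). The fall was -0.12 without DKO 3 (adjusted p = 0.12) and was lost under 11 of 20 alternatives. The rise was lost without WT 1, WT 2, Cbl-/- 1 or Cbl-/- 3, with log2 fold changes of 0.26, 0.23, 0.26 and 0.24.

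**Figure D3:**
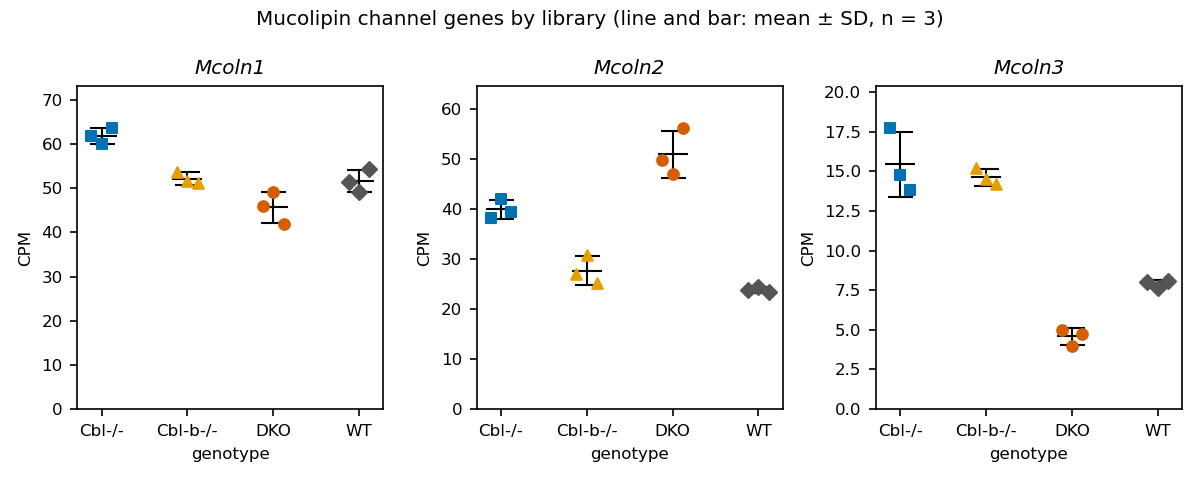
CPM (vertical axes) of Mcoln1, Mcoln2 and Mcoln3 in each library by genotype as labelled (horizontal axes); points are libraries, and the line and bars are the mean ± SD of 3. Mcoln3 sits at 13.8 to 17.7 CPM in Cbl-/-, 14.2 to 15.2 CPM in Cbl-b-/-, 4.01 to 5.02 CPM in DKO and 7.65 to 8.11 CPM in WT.

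Neither transcription factor gene passed against WT in the fit of all libraries, but both did under some alternatives. Tfeb had 37.9, 38.3 and 35.6 CPM in Cbl-/- libraries, 46.8, 51.0 and 41.6 CPM in those labelled DKO and 41.1, 40.4 and 45.2 CPM in WT. All 3 Cbl-/- libraries lay under WT, while those labelled DKO overlapped it. The log2 fold change was -0.18 in Cbl-/-, 0.01 in the libraries labelled Cbl-b-/- and 0.14 in those labelled DKO, and the last was 0.22 without DKO 3, where it passed (adjusted p = 0.011). In Cbl-/- Tfeb also passed without DKO 3 and with only Cbl-/- and WT fitted. Tfe3 was at -0.08, 0.05 and -0.15 in the same order, and the last passed under 6 of 20 alternatives, among them DESeq2 and limma voom. These are levels of RNA, and the activity of both proteins, which depends on their place in the cell, was not measured.

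The 7 genes with the core TCACGTGA are set beside the rest as a description with no test, since the genes were chosen with results known. The 5 genes that fell in Cbl-/- were Ctsd, Ctsa, Ctsb, Atp6v1a and Gla. The 4 of them with a promoter window, all but Ctsb, held the core. Of the 33 other genes with a window, 5 rose and none fell. This split did not hold under all settings. Without DKO 3, 5 of the 7 genes with the core fell, and so did 9 of the 33 without it, namely Lgmn, Gaa, Hexa, Man2b1, Naglu, Scarb2, Cd63, Tfeb and Atp6v0a1. With only Cbl-/- and WT fitted, 5 of 7 and 11 of 33 fell, and with DESeq2 4 of 7 and 3 of 33. The fall of Gla was itself lost under 14 of 20 alternatives, as given above. Mcoln1 also holds the core and rose, and Cln3 and Atp6v0d1 hold it and did not pass. Of all genes tested, 219 held the core and 5.02% of them fell in Cbl-/-, while 4.14% of the 9576 genes without it fell, with medians of -0.01 and -0.01.

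**Figure D4:**
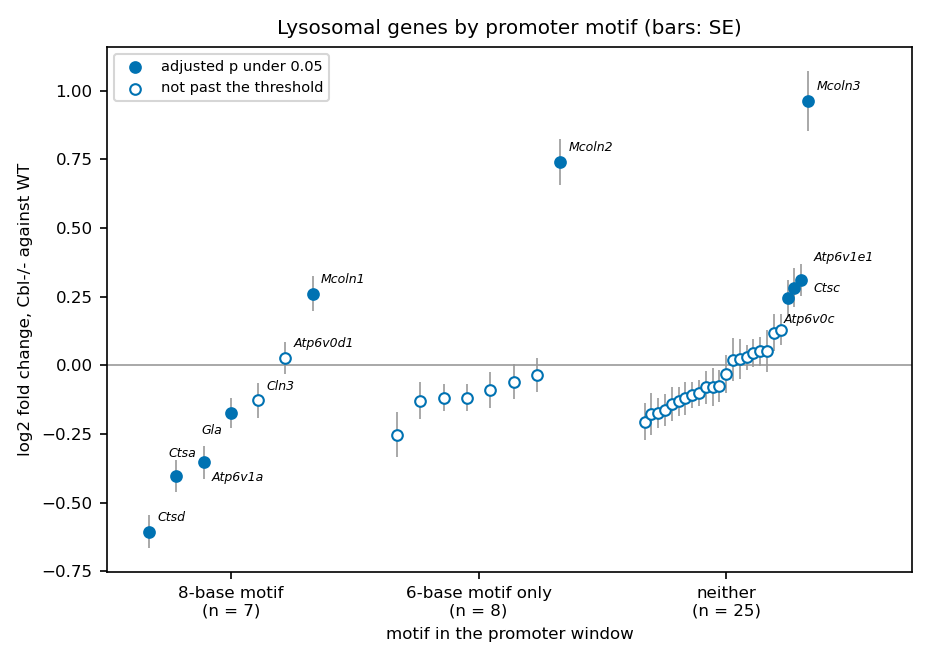
Log2 fold change in Cbl-/- libraries against WT (vertical axis) for the 40 lysosomal genes with a promoter window, by whether a window holds the 8-base core, only the 6-base E-box or neither (horizontal axis); bars are SE and filled points passed an adjusted p of 0.05. The 4 filled points under 0 are Ctsd, Ctsa, Atp6v1a and Gla, all among the 7 genes with the core, but without DKO 3 another 9 genes without the core passed as lower.

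The summed RNA of the proton pump genes was higher in the libraries labelled DKO, where Atp6v0c and Atp6v1b2 rose most. The summed level of the 11 genes was 4168, 4442 and 4285 CPM in the libraries labelled DKO, 3449, 3466 and 3433 CPM in Cbl-/-, 3526, 3584 and 3521 CPM in those labelled Cbl-b-/- and 3612, 3564 and 3578 CPM in WT. All 3 libraries labelled DKO were above all the others. Of the 11 genes 7 rose and none fell there, where 19.1% of all genes tested rose and 16.3% fell, and their median was 0.20. The alternatives were followed for 9 of them, all but Atp6v0b and Atp6ap1, and 5 to 7 rose in each. With total counts as the scaling 5 rose, and without DKO 3 there were 6 that rose while Atp6v1a fell.

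Atp6v0c, which encodes the proteolipid of the ring that carries protons, had 1045, 1189 and 955 CPM in the libraries labelled DKO, 778, 822 and 803 CPM in Cbl-/-, 694, 765 and 754 CPM in those labelled Cbl-b-/- and 683, 691 and 655 CPM in WT. Those labelled DKO were highest and those of Cbl-/- were next. Atp6v0c was at 0.65 on the log2 scale in the libraries labelled DKO (SE 0.07, adjusted p = 1.7e-06) and 0.24 in Cbl-/- (SE 0.07, adjusted p = 0.032). The call in Cbl-/- was lost when any of the 3 Cbl-/- or 3 WT libraries was left out, with values of 0.22 to 0.26. Atp6v0d1, the subunit that links the ring to the central stalk, had 214, 229 and 242 CPM in the libraries labelled DKO and 189, 183 and 176 CPM in WT. It rose by 0.32 (SE 0.06, adjusted p = 0.00044) with no overlap.

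Atp6v1b2, the B subunit of the V1 head, had 525, 563 and 540.1 CPM in the libraries labelled DKO, 344.5, 320.0 and 343 CPM in Cbl-/-, 352, 327 and 343 CPM in those labelled Cbl-b-/- and 372, 363 and 385.5 CPM in WT. Those labelled DKO stood above all the rest. Atp6v1b2 rose by 0.54 on the log2 scale (SE 0.05, adjusted p = 7.9e-07). In Cbl-/- it was -0.15 and did not pass, though it did under 3 of 20 alternatives, among them DESeq2. Its partner in the head, the catalytic A subunit gene Atp6v1a, had 542, 518 and 519 CPM in Cbl-/- libraries, 627, 600.4 and 611.5 CPM in those labelled Cbl-b-/-, 619, 615 and 720.4 CPM in those labelled DKO and 683, 654 and 680.2 CPM in WT. It fell by 0.35 in Cbl-/- (SE 0.06, adjusted p = 0.00080). In the libraries labelled DKO it was at -0.05 and did not pass, but without DKO 3, whose level was above WT, it was at -0.12 and passed (adjusted p = 0.022).

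The stalk subunit genes rose by less. Atp6v1e1 rose both in Cbl-/- (146, 148 and 136 CPM) and in the libraries labelled DKO (136, 137 and 153 CPM), where WT had 114.8, 114.8 and 117.5 CPM. The log2 fold changes were 0.31 (SE 0.06, adjusted p = 0.0019) and 0.30 (SE 0.06, adjusted p = 0.00078). Atp6v1h, the regulatory H subunit, rose by 0.32 in the libraries labelled DKO (adjusted p = 0.0013), and by 0.23 without DKO 3. Atp6v1c1 and Atp6v1d rose by 0.20 each (adjusted p = 0.049 and 0.039), but the calls were lost under 15 and 12 of 20 alternatives, and without DKO 3 the values were 0.08 and 0.12. Of the 6 V1 genes, 5 had a higher level in DKO 3 than in both DKO 1 and DKO 2, whereas 3 of the 5 V0 and accessory genes had a lower one. Atp6v0b and the accessory subunit gene Atp6ap1 did not pass against WT in any genotype in the fit of all libraries. Atp6ap1 passed as lower in Cbl-/- with only Cbl-/- and WT fitted. Atp6v0a1, at 0.11 in the libraries labelled DKO, passed there only without DKO 3 (0.17, adjusted p = 0.0040).

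**Figure D5:**
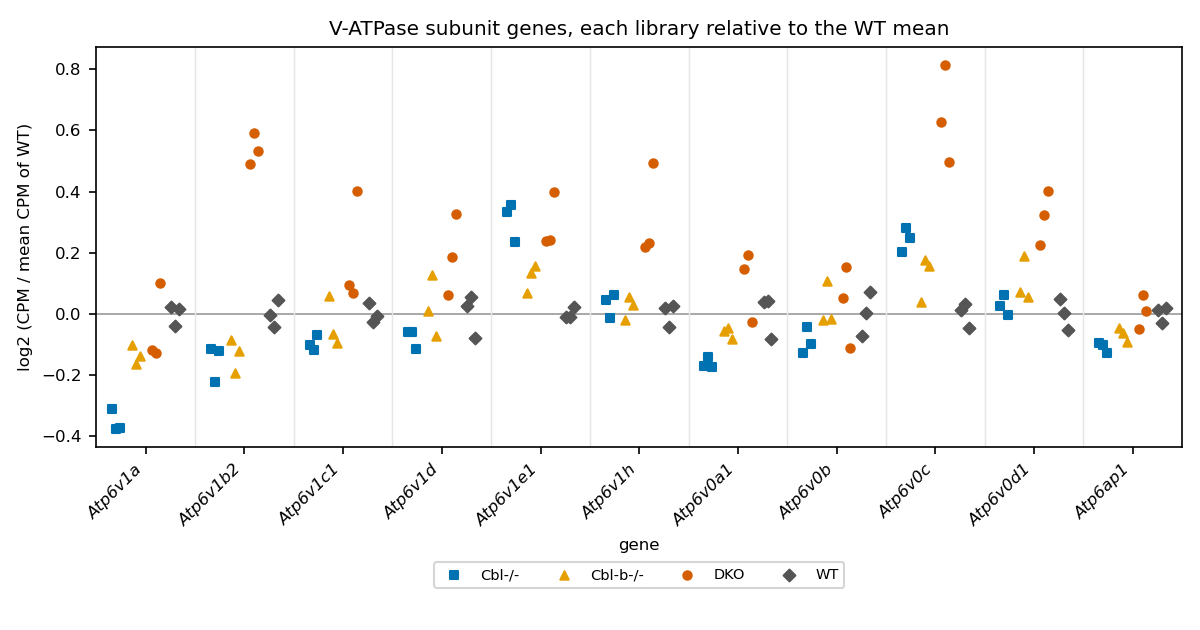
Log2 ratio of CPM to the WT mean (vertical axis) for the 11 genes of the proton pump (horizontal axis); each point is 1 library, with Cbl-/- and the libraries labelled Cbl-b-/- and DKO left of WT within each gene. All 3 libraries labelled DKO sit above all 3 WT libraries for 7 genes, among them Atp6v0c and Atp6v1b2, and the Cbl-/- libraries sit lowest for Atp6v1a.

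In the libraries labelled Cbl-b-/-, 1 of the 47 genes, Mcoln3, rose against WT and none fell with edgeR, DESeq2 or limma voom, where 0.395% of all genes tested rose and 0.0947% fell. At an unadjusted p under 0.05, 2 rose and 7 fell. The median was -0.01 over the 47 genes and 0.00 over all genes tested. Among genes that did not pass, Lipa was at -0.21, Ctsd at -0.19, Ctsh at -0.18 and Lgmn at -0.16, and Mcoln2 at 0.22 and Ctsz at 0.11. The summed level of the 7 monocyte genes was 77.8 to 86.7 CPM in the libraries labelled Cbl-b-/- and 56.5 to 61.9 CPM in WT, and that of the 8 granulocyte genes 43.1 to 53.5 CPM and 31.7 to 38.7 CPM. Without Mmp8 the granulocyte ranges overlapped, at 3.47 to 4.50 CPM and 3.05 to 4.26 CPM. The part of these markers was not tested.

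Set against the single genotypes, the libraries labelled DKO had more rises than falls. Against Cbl-/-, 23 of the 47 genes rose, 7 fell and 17 did not pass, where 16% of all genes tested rose and 13.6% fell, with a median of 0.14. Tfeb passed here, higher in the libraries labelled DKO by 0.32 (SE 0.08, adjusted p = 0.0045). Against the libraries labelled Cbl-b-/-, 19 rose, 8 fell and 20 did not pass, where 17.7% of all genes tested rose and 15.6% fell, with a median of 0.13. Tfe3 passed here, lower in the libraries labelled DKO by 0.20 (SE 0.06, adjusted p = 0.013), a call lost without the library Cbl-b-/- 3 (-0.18, adjusted p = 0.052). That call was also lost with only the compared genotypes fitted (-0.20, adjusted p = 0.072). Mcoln3 fell by 1.75 against Cbl-/- (SE 0.12, adjusted p = 1.0e-08) and by 1.67 against the libraries labelled Cbl-b-/- (SE 0.12, adjusted p = 1.9e-08). With total counts as the scaling, 19 rose and 7 fell against Cbl-/- (1362 and 2747 of all genes, against 2027 and 1720), and 12 rose and 11 fell against the libraries labelled Cbl-b-/- (1543 and 3207, against 2237 and 1974). These comparisons share the libraries labelled DKO with each other and with the comparison with WT.

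The effect of DKO against WT was then set against the effects of Cbl-/- and Cbl-b-/- added together, with all 3 on the log2 scale. Of the 47 genes, 15 lay above that sum, 6 below it and 26 did not pass, where 8.39% of all genes tested lay above and 7.28% below. The median was 0.16 over the 47 genes and 0.00 over all genes tested. With total counts as the scaling, which moved the median of all genes to -0.11, 11 lay above and 8 below, with 711 and 1719 of all genes in place of 1063 and 922. The farthest from the sum was Mcoln3, at -2.64 (SE 0.16, adjusted p = 9.3e-09), followed by Atp6v1b2 at 0.82 (SE 0.08, adjusted p = 1.4e-06). Ctsd, at 0.56 (SE 0.08, adjusted p = 0.00024), and Ctsb, at 0.52 (SE 0.09, adjusted p = 0.00068), lay above the sum, and Ctsh below it, at -0.50 (SE 0.08, adjusted p = 0.00037).

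Another 131 genes of lysosomes, their delivery routes, autophagy and nutrient control were in the table, and 130 were tested. In Cbl-/- 7 rose and 17 fell, in the libraries labelled Cbl-b-/- none rose or fell with edgeR, and in those labelled DKO 33 rose and 24 fell. As shares of all genes tested, 5.68% rose and 4.19% fell in Cbl-/-, 0.395% and 0.0947% in the libraries labelled Cbl-b-/-, and 19.1% and 16.3% in those labelled DKO. The medians were -0.06, -0.01 and -0.01. At an unadjusted p under 0.05, 7 rose and 4 fell in the libraries labelled Cbl-b-/-, where DESeq2 called 1 higher and limma voom none. In Cbl-/-, 10 rose and 32 fell without DKO 3, and 4 rose and 10 fell without WT 1. Among 9 further pump genes, 5 rose and 1 fell in the libraries labelled DKO.

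Genes of these lists were named where they passed against WT with a log2 fold change of at least 1 in size. Each of those below did so in the libraries labelled DKO, so the choice itself favours changes there. Igf2r, the receptor that sorts new hydrolases to lysosomes by their mannose 6-phosphate tag, had 551, 539 and 483 CPM in the libraries labelled DKO, 407, 397 and 386 CPM in Cbl-/-, 264, 269 and 241.5 CPM in those labelled Cbl-b-/- and 252, 268 and 260.1 CPM in WT. Those labelled DKO were highest and those of Cbl-/- next. It rose by 1.01 in the libraries labelled DKO (SE 0.06, adjusted p = 2.6e-09) and by 0.61 in Cbl-/- (SE 0.06, adjusted p = 2.8e-06). Hgsnat, an acetyltransferase of heparan sulfate breakdown, had 70.45, 72.3 and 73.9 CPM in the libraries labelled DKO and 194.5, 200.2 and 178 CPM in WT, and fell by 1.40 (SE 0.06, adjusted p = 4.5e-11).

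Genes of low level moved as well. Ctsk, the cathepsin by which osteoclasts digest bone collagen, had 8.50, 8.30 and 8.87 CPM in the libraries labelled DKO and 2.31, 2.36 and 2.75 CPM in WT. It rose by 1.80 (SE 0.16, adjusted p = 2.5e-07). Acp5, which encodes a phosphatase used as an osteoclast marker, rose by 1.04 (SE 0.26, adjusted p = 0.0046), and both are among the 8 osteoclast genes described above. Cst7, the gene of cystatin F, an inhibitor of cathepsins, rose by 1.82 (SE 0.19, adjusted p = 1.5e-06), and Ctsf fell by 1.21 (SE 0.13, adjusted p = 2.5e-06).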

How the data were processed

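RNA was measured in 12 libraries of macrophages, 3 per genotype, as stranded mRNA libraries per the labels' protocols, which also say that RNA was pooled without saying what was pooled. The authors deposited whole-number read counts per gene with no normalization. The build was GRCm38.p5 per the submitters' processing notes, and the sources used here do not name the aligner, the counter or its strand setting. Each gene had at least 1 count in WT 1, so genes silent there were not analysed here. Exon lengths and positions came from GENCODE annotation of GRCm38, and promoters from RefSeq.

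One fit of all 12 libraries was made in R 4.3.3 with edgeR 4.0.16 (filterByExpr, TMM scaling, robust quasi-likelihood, Benjamini-Hochberg over 12671 genes, threshold 0.05), after checks on simulated counts. CPM values use the TMM-scaled library sizes. The groups follow the labels. Members and lists were chosen with earlier results of these data known. The genes given in full were those called against WT with a log2 fold change of at least 0.5 in size or among the 12 smallest adjusted p in DKO against WT, the other lysosomal genes those called with at least 1, and further lysosomal genes given in full were chosen after their values were seen. Alternatives were DESeq2 1.42.0 size factors or test, total counts, limma 3.58.1 voom, other filters, the replicate number as a block, fits of only the genotypes compared and fits without each library.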

Additional observations from a re-analysis of the deposited data

Results flagged for a closer look

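The effect in the libraries labelled DKO was set against the effects of Cbl-/- and Cbl-b-/- added together on the log2 scale. It differed for 21 of the 47 genes with edgeR's quasi-likelihood test, 15 above the sum and 6 below it. Of all genes tested, 8.39% lay above that sum and 7.28% below. Among the proteases, the log2 departures were 0.307 for Ctsa, 0.515 for Ctsb, 0.559 for Ctsd, -0.5 for Ctsh, 0.532 for Ctsl, 0.374 for Ctsz and -0.304 for Lgmn. Among the glycosidases they were 0.214 for Glb1, 0.384 for Gusb, 0.512 for Gla and -0.329 for Man2b1. The lipid genes Lipa, Npc1 and Psap had 0.406, -0.319 and 0.374, and the tetraspanin gene Cd63 had 0.406. The channel genes Mcoln1 and Mcoln3 had -0.454 and -2.635. Among the pump subunits, Atp6v1a had 0.442, Atp6v1b2 0.825, Atp6v1c1 0.327 and Atp6v0a1 0.33. Of these 21 calls, 17 held under each of the 19 alternatives run. The calls of Ctsa and Atp6v0a1 were lost with total counts as the scaling, that of Atp6v1c1 under 10 alternatives and that of Glb1 under 14. The monocyte and granulocyte marker genes that were higher in the libraries labelled DKO enter this contrast too, and their part was not tested.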

How the results depend on the processing

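With total counts as the scaling, the median over the 47 genes was -0.060 in Cbl-/- against WT, 0.009 in Cbl-b-/- against WT, 0.017 in DKO against WT, 0.052 in DKO against Cbl-/-, 0.036 in DKO against Cbl-b-/- and 0.049 in the contrast with the sum, and 12 genes rose in DKO against Cbl-b-/-. DESeq2 called 9 of the 47 lower in Cbl-/- against WT and 144 genes in all in Cbl-b-/- against WT. With only the compared genotypes fitted, 2753 genes passed in Cbl-/- against WT, with 18 of the 47 lower, and 2760 in DKO against Cbl-b-/-, with 12 of the 47 higher and 4 lower; this fit cannot be made for the contrast with the sum. Per kilobase of the longest transcript the WT levels were 5131 for Ctsd, 2216 for Ctsb, 1041 for Grn, 17.9 for Mcoln1 and 2.65 for Mcoln3. Leaving out 1 library at a time gave 733 to 2206 genes in Cbl-/- against WT, with 5 to 9 of the 47 higher, 3 to 16 lower and medians of -0.098 to -0.062. The count in Cbl-/- against WT was 733 without WT 1, 801 without WT 2, 784 to 803 without a Cbl-/- library and 2206 without DKO 3. It was 35 to 144 in Cbl-b-/- against WT (37 without WT 1, 35 and 41 without Cbl-b-/- 2 and 3, 144 without DKO 3). The same fits gave medians of 0.123 to 0.189 in DKO against Cbl-/- and 5 to 10 lower in DKO against Cbl-b-/-. Among the genes that did not pass, the sign turned under at least 1 alternative for 4 of 34 in Cbl-/- against WT, 14 of 46 in Cbl-b-/- against WT and 6 of 21 in DKO against WT, all with log2 values of at most 0.089 in size. Of those printed in the text they were Tfeb (-0.016 to 0.064 over all libraries left out, -0.005 and -0.014 among them) and Mcoln1 (-0.018 to 0.053, -0.01 among them) in Cbl-b-/- against WT and Lamp2 in DKO against WT (-0.032 without DKO 3 to 0.152 without DKO 1). Calls of the 47 genes that held under all alternatives were 8 of 13 in Cbl-/- against WT, 1 of 1 in Cbl-b-/- against WT, 18 of 26 in DKO against WT, 26 of 30 in DKO against Cbl-/- and 16 of 27 in DKO against Cbl-b-/-.

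The replicate numbers are shared between genotypes but do not pair the libraries: deviations of same-numbered libraries correlated at -0.054 to 0.052 over 18 pairs, against -0.09 to 0.09 for other numbers. With the replicate number as a block, 8 rose and 4 fell in Cbl-/- against WT and 16 rose and 8 fell in DKO against WT, and 6 calls of the 47 genes were lost over the 6 comparisons. With 3 libraries per genotype, a gene that did not pass is not shown to be equal.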
